A study of Trametes versicolor with 12 samples.

Results

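LDO1 and LDO2 are a pair of genes of the white-rot fungus Trametes versicolor, named in the RefSeq gene table under the locus tags TRAVEDRAFT_157667 and TRAVEDRAFT_64780. They were chosen by the protein IDs '157667' and '64780' of the deposited files, and they are 2 of the 14296 gene models in the files. Expression was measured by RNA sequencing of mycelium from plates of 4% malt agar. The 12 libraries form 4 groups of 3 biological replicates: strain 1956-1252 after 4 weeks, strain 1956-1252 after 2 weeks, strain BRFM1218 after 4 weeks and strain BRFM1218 after 2 weeks. The strains were grown alike and carry no engineered allele or added agent in the labels. Each strain is a single isolate, so a strain difference here is a difference between 2 isolates. Whole mycelium was extracted, so fewer cells that express a gene and less of its RNA per cell cannot be told apart.

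The symbol LDO is read here as a linoleate diol synthase-type oxygenase. The gene table gives the symbol alone, with no product description. Such enzymes, known from other fungi such as Gaeumannomyces and Aspergillus, join a haem dioxygenase domain related to animal cyclooxygenases to a cytochrome P450-like domain. The dioxygenase part adds oxygen to linoleic acid to give a hydroperoxide, and the P450-like part can rearrange it to a diol or another oxylipin, a class of oxygenated fatty acids. In Aspergillus the related Ppo genes affect the balance between sexual and asexual spores. What the products of LDO1 and LDO2 do in Trametes versicolor was not measured here.

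Reads assigned to gene models numbered 31763162 to 74647672 per library. LDO1 had 5529 to 19523 reads per library and LDO2 1401 to 42330, so the counting error of a single value (the square root of the read count, as a share of it) was 0.716 to 1.34% for LDO1 and 0.486 to 2.67% for LDO2. Over the 12 libraries 3 of 137626 LDO1 reads and 2 of 223444 LDO2 reads were not uniquely aligned, so reads shared between near-identical copies were a negligible part of either value. In the RefSeq table neither gene overlapped its neighbours. The gene lengths behind the deposited RPKM (reads scaled by gene model length and by library total) were 3514 bases for LDO1 and 3381 bases for LDO2. Levels below are RPKM normalised with TMM factors (the trimmed mean of M values in edgeR), a scaling that allows for differences in library composition, and are given as mean ± SD (n = 3 libraries).

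LDO1 moved in opposite directions with culture age in the strains, and LDO2 rose in both. In 1956-1252 the genes rose by nearly the same factor, and LDO2 stayed at a little over 2 times the level of LDO1. In BRFM1218 LDO1 was the more abundant of the pair at either age, and its lead shrank as LDO2 rose and LDO1 fell.

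In 1956-1252, LDO1 stood at 78.8, 74.9 and 76.5 TMM-normalised RPKM after 4 weeks, against 42.4, 42.1 and 42.5 after 2 weeks. The ages did not overlap, and the 4-week libraries were all near 1.8 times the 2-week ones. The means were 76.7 ± 1.92 at 4 weeks and 42.3 ± 0.22 at 2 weeks, a log2 fold change of 0.86 (SE 0.04, adjusted p = 5.58e-11, edgeR's quasi-likelihood test with Benjamini-Hochberg adjustment, as for all adjusted p below). At an adjusted p under 0.05, 25.1% of the 12648 tested genes were called up and 23.4% down with age in this strain, and 92.4% of tested genes had a lower log2 fold change than LDO1.

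LDO2 in 1956-1252 stood at 178, 170 and 172 TMM-normalised RPKM after 4 weeks, against 94.0, 97.0 and 97.2 after 2 weeks. All 4-week libraries lay above all 2-week ones. The means were 173 ± 4.19 at 4 weeks and 96.1 ± 1.83 at 2 weeks, with a log2 fold change of 0.85 (SE 0.04, adjusted p = 2.51e-11). This is a 1.80-fold rise beside the 1.81-fold rise of LDO1, and the 95% intervals of the log2 fold changes, 0.77 to 0.94 for LDO2 and 0.77 to 0.95 for LDO1, cover almost the same range.

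In BRFM1218, LDO1 stood at 51.8, 49.1 and 54.7 TMM-normalised RPKM after 4 weeks, against 65.8, 67.9 and 67.9 after 2 weeks. The 4-week libraries were all below the 2-week ones, the reverse of the order in 1956-1252. The means were 51.9 ± 2.81 at 4 weeks and 67.2 ± 1.16 at 2 weeks, a log2 fold change of -0.37 (SE 0.04, adjusted p = 1.07e-06). The fall is a modest one within this strain: 27.4% of tested genes were called lower at 4 weeks, and 44.6% of tested genes changed by a smaller log2 amount than LDO1 in either direction.

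LDO2 in BRFM1218 stood at 36.5, 37.4 and 38.9 TMM-normalised RPKM after 4 weeks, against 15.7, 14.7 and 15.3 after 2 weeks. The ages did not overlap, and this was the largest proportional age change of the pair in either strain. The means were 37.6 ± 1.23 at 4 weeks and 15.2 ± 0.529 at 2 weeks, a 2.47-fold rise (log2 fold change 1.30, SE 0.04, adjusted p = 1.51e-13). In this comparison 33% of tested genes were called higher, and 92.9% had a lower log2 fold change than LDO2.

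**Figure D1:**
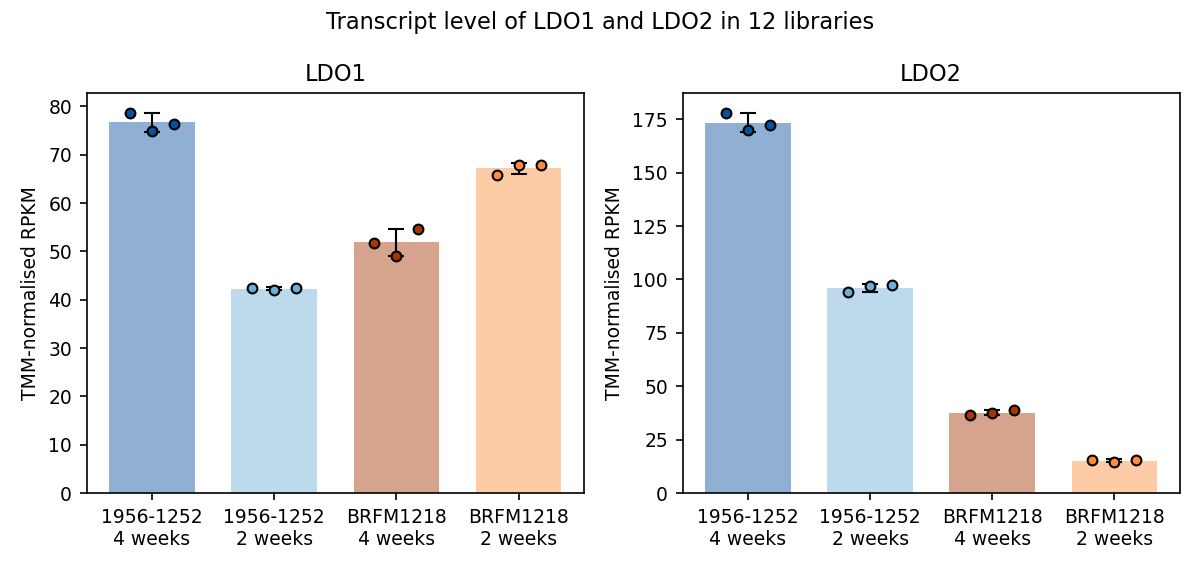
Level of LDO1 (left) and LDO2 (right) in TMM-normalised RPKM for the 12 libraries in their 4 groups; points are libraries, bars are group means and error bars are SD (n = 3). LDO1 is higher at 4 than at 2 weeks in 1956-1252 and lower at 4 than at 2 weeks in BRFM1218, while LDO2 is higher at 4 weeks in both strains and ranges from 15.2 to 173 over the group means.

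The age change differed between the strains for both genes, by the test of the difference itself. For LDO1 the age change in 1956-1252 exceeded that in BRFM1218 by 1.23 on the log2 scale (SE 0.06, 95% interval 1.10 to 1.36, adjusted p = 3.56e-11). For LDO2 it was smaller in 1956-1252 than in BRFM1218, with a difference of -0.45 (SE 0.06, 95% interval -0.58 to -0.33, adjusted p = 5.91e-06). The test was passed by 52.9% of all tested genes, 25.6% in the direction of LDO1 and 27.2% in the direction of LDO2. The size for LDO1 exceeded that of 84.1% of tested genes, and the size for LDO2 that of 47.4%.

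Between the strains, LDO2 was several times higher in 1956-1252 at either age. At 4 weeks the libraries of 1956-1252 lay at 170 to 178 TMM-normalised RPKM and those of BRFM1218 at 36.5 to 38.9, a 4.61-fold difference (log2 2.21, SE 0.04, adjusted p = 5.77e-18). At 2 weeks the libraries of 1956-1252 lay at 94.0 to 97.2 and those of BRFM1218 at 14.7 to 15.7, a 6.30-fold difference (log2 2.66, SE 0.04, adjusted p = 8.34e-19). Even the lowest 1956-1252 library, at 2 weeks, was more than 2 times as high as the highest BRFM1218 library, at 4 weeks.

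LDO1 changed the sign of its strain difference with age. At 4 weeks it was higher in 1956-1252, at 74.9 to 78.8 TMM-normalised RPKM against 49.1 to 54.7 in BRFM1218, a 1.48-fold difference (log2 0.57, SE 0.04, adjusted p = 1.3e-09). At 2 weeks it was lower in 1956-1252, at 42.1 to 42.5 against 65.8 to 67.9 in BRFM1218 (log2 -0.67, SE 0.04, adjusted p = 1.36e-10). Strain calls were the rule in these data, at 85.5% of tested genes at 4 weeks and 84.7% at 2 weeks. Of all tested genes, 44.9% of tested genes were higher and 40.6% lower in 1956-1252 at 4 weeks, and 44.4% and 40.4% at 2 weeks. A call of LDO1 or LDO2 between strains, in either direction, therefore does not set them apart from other genes. The strain difference of LDO1 was smaller than that of most genes, with 30.1% of tested genes below it in size at 4 weeks and 34.4% at 2 weeks. For LDO2 these shares were 77.3% and 81.8%.

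The strain differences depended on the scaling: TMM factors were 1.18 to 1.23 in libraries of 1956-1252 and 0.820 to 0.846 in those of BRFM1218. With library size only, LDO1 differed by 1.12 on the log2 scale at 4 weeks (adjusted p = 1.48e-13) and by -0.15 at 2 weeks (adjusted p = 0.00496), and with upper quartile factors by 0.86 and -0.36. LDO2 differed by 2.76 at 4 weeks and 3.17 at 2 weeks with library size only, and by 2.50 and 2.96 with upper quartile factors. Over all alternatives run the largest adjusted p for LDO1 was 1.17e-06 at 4 weeks and 0.00496 at 2 weeks. The median over all tested genes of this log2 difference moved with the scaling, from 0.11 with TMM to 0.66 with library size only at 4 weeks and from 0.09 to 0.60 at 2 weeks. The share of called genes that were higher in 1956-1252 went with it, at 52.6% with TMM and 68.8% with library size only at 4 weeks, and 52.4% and 67.9% at 2 weeks. A scaling factor shifts all genes by about the same amount, so differences from that median barely depend on it by construction. They were 0.46 for LDO1 and 2.10 for LDO2 at 4 weeks, and -0.75 and 2.57 at 2 weeks. Whether reads of both strains aligned equally well to these gene models was not tested.

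**Figure D2:**
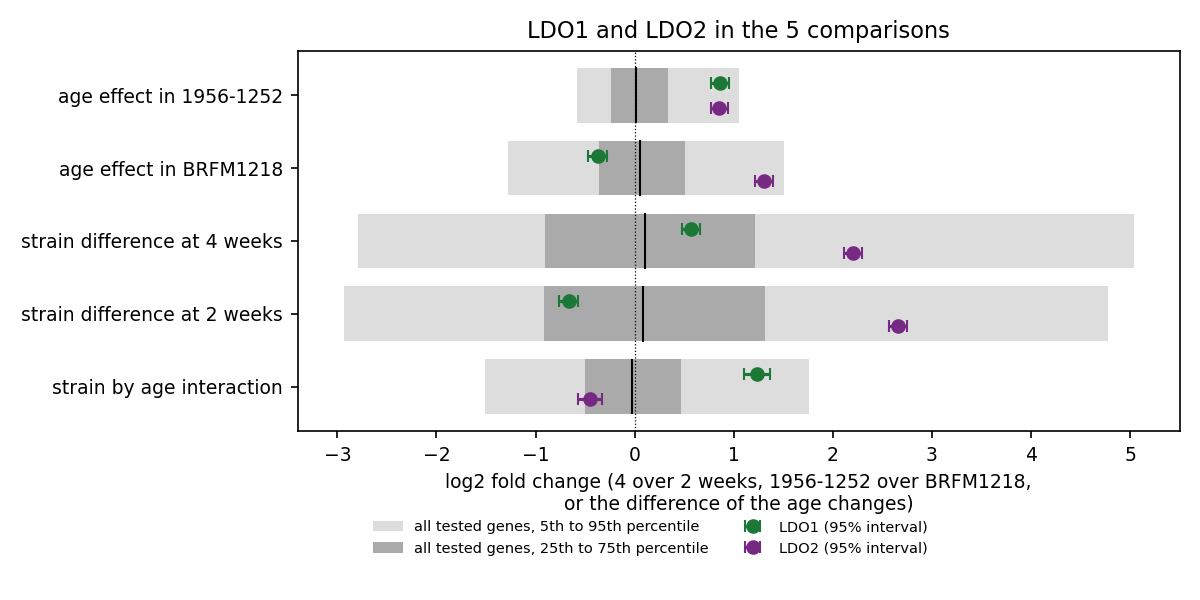
Log2 fold changes of LDO1 and LDO2 with 95% intervals in the 5 comparisons, over the 5th to 95th and 25th to 75th percentiles of all 12648 tested genes (grey bars, median as a black line). The genes coincide in the age effect in 1956-1252 (0.86 and 0.85) and lie apart in the other comparisons, on opposite sides of 0 in the age effect in BRFM1218, in the strain difference at 2 weeks and in the interaction.

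Ordered by level, LDO2 was highest in 1956-1252 at 4 weeks, then in 1956-1252 at 2 weeks, BRFM1218 at 4 weeks and BRFM1218 at 2 weeks, with no overlap between neighbours in that order. The deposited RPKM, which is scaled by library size only, gave the same order for LDO2, at 212 ± 4.18, 114 ± 2.52, 31.5 ± 1.33 and 12.6 ± 0.422. LDO1 was highest in 1956-1252 at 4 weeks and next in BRFM1218 at 2 weeks on either scale. Its lower places changed with the scale. In TMM-normalised RPKM, BRFM1218 at 4 weeks (49.1 to 54.7) lay above 1956-1252 at 2 weeks (42.1 to 42.5). In deposited RPKM, BRFM1218 at 4 weeks (40.8 to 46.3) lay below 1956-1252 at 2 weeks (49.7 to 50.5). Groups that differ in both strain and age were not tested against each other.

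The rank of LDO1 among all gene models varied less between groups than that of LDO2. By deposited RPKM, LDO1 ranked between 1656 and 3136 of 14296 models over the libraries. LDO2 ranked between 692 and 734 in 1956-1252 at 4 weeks and between 6076 and 6262 in BRFM1218 at 2 weeks. Among the 42 tested genes with a symbol, which are mostly peroxidases and laccases, LDO2 ranked 2 at 4 weeks and 1 at 2 weeks in 1956-1252, and 7 at 4 weeks and 12 at 2 weeks in BRFM1218, by mean TMM-normalised RPKM. LDO1 ranked 4 and 3 at these ages in 1956-1252, and 6 and 4 in BRFM1218. Replicates were close: the SD of TMM-normalised RPKM was 0.52 to 5.41% of the group mean for LDO1 and 1.90 to 3.47% for LDO2.

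The ratio of LDO2 to LDO1 within a library does not depend on how libraries are scaled. It was computed from deposited RPKM, so that each gene is counted per length. In 1956-1252 the ratio was 2.26, 2.27 and 2.25 at 4 weeks, against 2.22, 2.31 and 2.29 at 2 weeks. The 4-week values lay inside the range of the 2-week ones. The mean log2 ratio differed between ages by -0.0055, the differences between single libraries of the ages ran from -0.03 to 0.03, and an exact two-sided permutation test gave p = 0.8, where 3 against 3 allows no p below 0.1.

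In BRFM1218 the ratio was 0.704, 0.762 and 0.712 at 4 weeks, against 0.239, 0.217 and 0.226 at 2 weeks. The ages did not overlap. The ratio was 3.20-fold higher at 4 weeks (log2 1.68), with differences between single libraries from 1.56 to 1.82, and the exact permutation test gave p = 0.1, the smallest this design allows. In terms of the summed RPKM of the pair, LDO2 made up 42.1 ± 1.05% at 4 weeks and 18.5 ± 0.754% at 2 weeks in BRFM1218, and 69.3 ± 0.0667% and 69.4 ± 0.432% at these ages in 1956-1252.

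The age change of the log2 ratio was smaller in 1956-1252 than in BRFM1218 by 1.68, a value given without a test, beside a pooled SD of 0.05 between replicates. The ratio itself was higher in 1956-1252 than in BRFM1218 in all 6 libraries of each strain, 3.12-fold at 4 weeks and 10.01-fold at 2 weeks. Averaged over the ages the log2 difference was 2.48, and an exact two-sided permutation test of strain within age gave p = 0.005, the smallest its 400 arrangements allow.

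**Figure D3:**
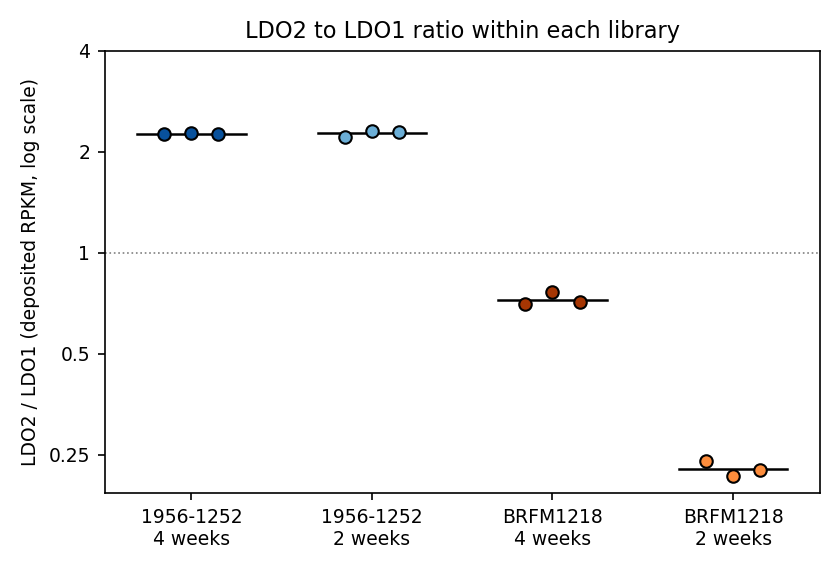
Ratio of LDO2 to LDO1 in deposited RPKM, on a log axis, in each of the 12 libraries; lines are group means of the log ratio. The ratio is close to 2.3 at both ages in 1956-1252, and in BRFM1218 it lies between 0.704 and 0.762 at 4 weeks and between 0.217 and 0.239 at 2 weeks.

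The summed deposited RPKM of the pair was 306 ± 6.08 at 4 weeks and 164 ± 2.72 at 2 weeks in 1956-1252. In BRFM1218 it was 74.8 ± 3.87 at 4 weeks and 68.1 ± 0.495 at 2 weeks. The sum was thus clearly higher at the later age in 1956-1252. With TMM factors LDO1 rose 1.81-fold and LDO2 1.80-fold in that strain. In BRFM1218 the ages lay near each other, at 71.8 to 79.2 and 67.6 to 68.6, with the fall of LDO1 set against the rise of LDO2. Deposited RPKM is scaled by library size only, so the gap between the strains in the sum depends on that scaling. The sum was not computed with TMM factors.

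Over the 12 libraries, with TMM factors, the profiles of the pair did not follow each other. The Pearson correlation of their log2 TMM-normalised CPM (counts scaled to library size) was 0.00032, a description over libraries that share strains and ages. This correlation depends on the scaling, because a scaling factor moves both genes of a library together. The log2 strain difference of LDO1 was 0.57 at 4 weeks and -0.67 at 2 weeks with TMM. It was 1.12 and -0.15 with library size only. The correlation was not computed under another scaling. Likeness was then measured as the root mean square difference of centred log2 profiles, among 8307 other genes with a mean of at least 10 CPM. By this measure LDO2 took place 7257 among the genes nearest to LDO1, at a difference of 1.38, where the median gene was at 0.63. Among the genes nearest to LDO2, LDO1 took place 3561, with the median gene at 1.47. This measure counts the size of changes as well as their direction. A gene with large changes therefore lies far from a gene with small ones, whatever their directions.

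The 5 genes nearest to LDO1 were TRAVEDRAFT_116288, TRAVEDRAFT_152293, TRAVEDRAFT_70288, TRAVEDRAFT_27229 and TRAVEDRAFT_155021, at differences of 0.101 to 0.111 with correlations of 0.944 to 0.962. For instance, TRAVEDRAFT_116288 was at 20.9 ± 0.523 TMM-normalised RPKM at 4 weeks and 11.6 ± 0.748 at 2 weeks in 1956-1252. In BRFM1218 it was at 12.7 ± 0.385 at 4 weeks and 18.1 ± 1.40 at 2 weeks. TRAVEDRAFT_152293 was the most abundant of these, at 436 ± 20.6 and 258 ± 9.88 in 1956-1252 at 4 and 2 weeks, and 335 ± 17.3 and 431 ± 11.4 in BRFM1218. These genes have no symbol in the gene table and were picked for this pattern, so their resemblance is a description. With library size only, 3 of the 5 lost their strain call at 2 weeks: TRAVEDRAFT_116288 (log2 -0.13, adjusted p = 0.072), TRAVEDRAFT_70288 (-0.04, adjusted p = 0.507) and TRAVEDRAFT_155021 (-0.0048, adjusted p = 0.954). With TMM factors a profile like that of LDO1 was uncommon: 29 genes, 0.349% of those compared, correlated with it above 0.9. Such genes were not counted under another scaling. That correlation takes strain and age together. The difference in age change between strains, taken alone, was called in the direction of LDO1 for 25.6% of all tested genes.

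The 5 genes nearest to LDO2 were TRAVEDRAFT_23898, TRAVEDRAFT_67857, TRAVEDRAFT_20348, TRAVEDRAFT_64709 and TRAVEDRAFT_33158, at differences of 0.194 to 0.207 with correlations of 0.988 to 0.992. TRAVEDRAFT_67857 was at 316 ± 7.09 TMM-normalised RPKM at 4 weeks and 199 ± 8.03 at 2 weeks in 1956-1252. In BRFM1218 it was at 98.1 ± 4.63 at 4 weeks and 34.4 ± 2.14 at 2 weeks. With TMM factors 977 genes, 11.8% of those compared, correlated with LDO2 above 0.9. A correlation compares the shape of profiles over strain and age together, and takes no account of the size of the step between strains.

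**Figure D4:**
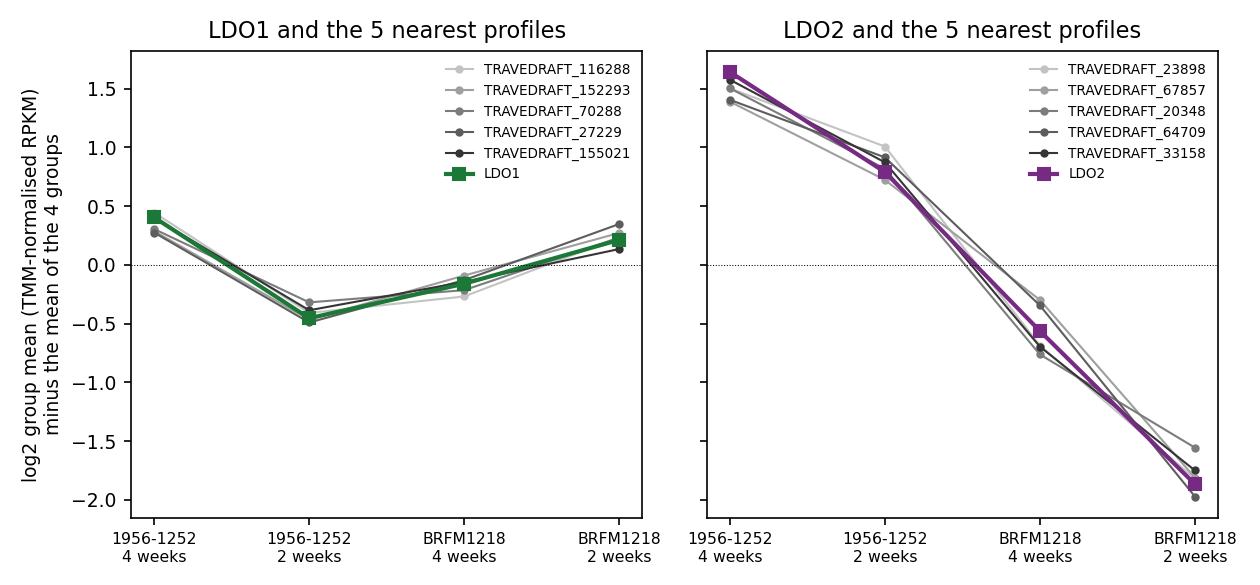
Log2 group mean in TMM-normalised RPKM, minus the mean of the 4 groups, for LDO1 (left) and LDO2 (right) with the 5 genes whose library profiles were nearest to each. With TMM factors the LDO1 set is high in 1956-1252 at 4 weeks and BRFM1218 at 2 weeks, and the LDO2 set steps down from 1956-1252 at 4 weeks to BRFM1218 at 2 weeks.

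TRAVEDRAFT_67857 is also the third gene model after LDO1. This is by row order in the RefSeq gene table (assembly Trametes versicolor v1.0), which names no chromosome. Rising starts in row order do not show that these models lie on the same chromosome. A near neighbour of LDO1 in row order thus had a profile near that of LDO2, where 11.8% of the genes compared correlated with LDO2 above 0.9. The model just before TRAVEDRAFT_67857, TRAVEDRAFT_55003, rose with age as well. Its log2 fold changes were 1.504 in 1956-1252 (SE 0.06, adjusted p = 3.4e-12) and 1.12 in BRFM1218 (SE 0.07, adjusted p = 2.7e-10). TRAVEDRAFT_67857 rose by 0.67 (SE 0.05, adjusted p = 7.14e-09) and 1.51 (SE 0.05, adjusted p = 2.21e-13) in these strains. LDO1 itself fell in BRFM1218, so these neighbours differed from it there in direction.

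Of the 6 gene models flanking LDO1 (3 on either side), 3 were called higher and 1 lower with age in 1956-1252, where 48.6% of all tested genes were called. In BRFM1218, 2 were called higher and 2 lower, where 60.4% of all tested genes were called, so the share in BRFM1218 is near the background. The one called lower in 1956-1252, TRAVEDRAFT_32777 (log2 -0.18, adjusted p = 0.0265), was not called with library size only (-0.13, adjusted p = 0.105). TRAVEDRAFT_157673, the next model after LDO1, fell in BRFM1218 with a log2 fold change of -0.38 (SE 0.07), close to that of LDO1, and in 1956-1252 had 0.17 (adjusted p = 0.0548). That p was 0.0498 under upper quartile scaling and 0.0155 by library size alone. TRAVEDRAFT_41317 and TRAVEDRAFT_110984, before LDO1, were at 5.40 or less in mean TMM-normalised RPKM in all groups. The call of TRAVEDRAFT_41317 as lower in BRFM1218 (log2 -2.65, SE 0.99, adjusted p = 0.029) rests on very few reads. Its means there were 0.02 at 4 weeks and 0.19 at 2 weeks. Around LDO2, the 3 models after it had at most 2 reads in any library and were not tested. Of the 3 models before it, TRAVEDRAFT_28929 was the only one at a mean above 3 TMM-normalised RPKM in any group. It was at 66.1 ± 5.71 and 68.0 ± 10.04 in 1956-1252 at 4 and 2 weeks, and at 173 ± 12.8 and 112 ± 5.91 in BRFM1218. It was thus lower in 1956-1252, where LDO2 was higher (log2 -1.39 at 4 weeks and -0.72 at 2 weeks, each called).

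Other haem enzymes with a symbol in the gene table were set beside the pair. They comprise the dye-decolorizing peroxidases DyP1 and DyP2, the haem-thiolate peroxidases HTP1, HTP2 and HTP3, and the cytochrome c peroxidase CCP1, which reduces hydrogen peroxide with electrons from cytochrome c. With age, 5 of these 6 rose and 0 fell in 1956-1252, with a median log2 fold change of 1.248 against 0.01 for all tested genes, where 48.6% of tested genes were called in either direction. In BRFM1218, 3 rose and 2 fell, with a median of 0.63 against 0.06, where 60.4% were called. DyP1 was the one that, like LDO1, rose in 1956-1252 (log2 1.18, SE 0.05) and fell in BRFM1218 (-1.47, SE 0.05). DyP2, HTP2 and HTP3 rose in both strains, as LDO2 did. CCP1 fell in BRFM1218 (log2 -1.03, SE 0.05, adjusted p = 1.93e-11) and had -0.04 in 1956-1252 (adjusted p = 0.6). HTP1 rose in 1956-1252 (1.32, SE 0.06) and had 0.05 in BRFM1218 (adjusted p = 0.5).

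The secreted lignin-modifying enzymes give the wider setting. Of 26 class II peroxidases, the secreted haem peroxidases that act on lignin or manganese, 6 rose and 0 fell with age in 1956-1252 (median 0.25), and 13 rose and 4 fell in BRFM1218 (median 0.61). The share called was 23.1% in 1956-1252, below the 48.6% of all tested genes, and 65.4% in BRFM1218, near the 60.4% of all tested genes. All calls in 1956-1252 were rises, where 25.1% of all tested genes were called up. These 26 genes had mean CPM of 1.03 to 74.9, against 209 for LDO1. The SE of their log2 age change in 1956-1252 was 0.06 to 0.31, against 0.04 for LDO1. Whether the low share called went with low read numbers was not tested. VP2, a versatile peroxidase gene and the one with the highest mean CPM, had a log2 fold change of 0.50 in 1956-1252 (SE 0.06, adjusted p = 1.71e-06) and -0.26 in BRFM1218 (SE 0.06, adjusted p = 0.000933). MnP1s, named as a manganese peroxidase, had 0.33 (SE 0.12, adjusted p = 0.0264) and -0.34 (SE 0.13, adjusted p = 0.0293) in these strains. The signs of VP2 and MnP1s were thus those of LDO1 in each strain. Of 9 laccases and multicopper oxidases, copper enzymes that oxidise phenols or metal ions, 8 were matched to gene models and tested. In 1956-1252, 6 of these rose and 0 fell (median 0.62), and in BRFM1218 2 rose and 5 fell (median -0.54). The share called was 75% in 1956-1252 and 87.5% in BRFM1218, against 48.6% and 60.4% of all tested genes in these strains. TvLac6, with the highest mean CPM of these, rose in 1956-1252 (0.78, SE 0.14, adjusted p = 0.000199) and fell in BRFM1218 (-4.20, SE 0.15, adjusted p = 4.01e-13), the signs of LDO1 in each strain. In BRFM1218 the log2 change of TvLac6 was larger in size than that of LDO1 (-0.37). In 1956-1252 it lay within its SE of that of LDO1 (0.86), and the genes were not tested against each other. TvLac3, the next by mean CPM, rose in both strains, with 0.76 (SE 0.10, adjusted p = 8.55e-06) in 1956-1252 and 0.34 (SE 0.11, adjusted p = 0.0118) in BRFM1218.

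**Figure D5:**
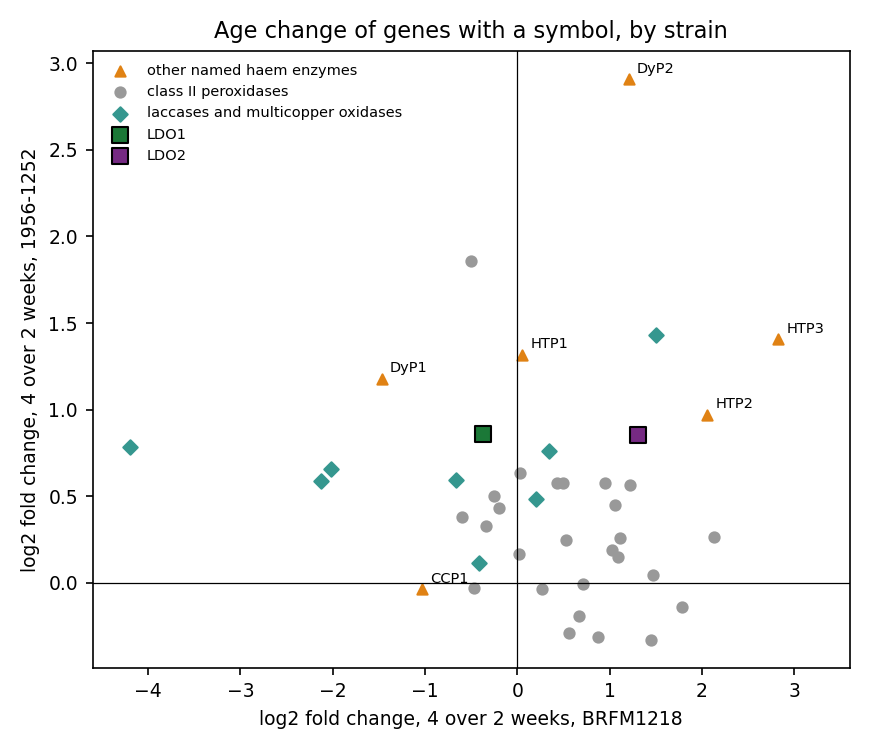
Log2 fold change with age (4 over 2 weeks) in 1956-1252 (y axis) and in BRFM1218 (x axis) for the 42 tested genes with a symbol. LDO1 (0.86 in 1956-1252, -0.37 in BRFM1218) lies in the upper left with DyP1, VP2, MnP1s, TvLac6 and further peroxidase and laccase genes. LDO2 (0.85 in 1956-1252, 1.30 in BRFM1218) lies in the upper right with DyP2, HTP2, HTP3 and many other genes.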

How the data were processed

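Per the labels, 12 libraries of Trametes versicolor mycelium were made from total RNA of triplicate cultures. Per the file headers, the authors deposited for each of 14296 gene models a count of uniquely aligned reads, a count of all reads and RPKM. Recomputation showed that deposited RPKM is the all-read count divided by the column total and by 1 length per gene (relative spread of that length between files at most 2.6e-07). Aligner, counter, genome build and use of strand are not given in the sources used here. Protein numbers were matched to locus tags of the RefSeq gene table (assembly Trametes versicolor v1.0; 14250 matched, 42 with a symbol), which was used for symbols and gene order only. Gene order was read from its rows, with starts rising over the rows used.

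Counts of all reads were fitted with edgeR 4.0.16 in R 4.3.3: filterByExpr (12648 genes kept, 1648 removed), TMM, 1 mean per group over 12 libraries (8 residual degrees of freedom), quasi-likelihood tests, and Benjamini-Hochberg adjustment over all tested genes, called at 0.05. Standard errors are the log2 fold change divided by the square root of F. As a check of the code, the fit was run on simulated counts in which a small share of genes had known changes. That check does not bear on the scaling between strains, where most genes differed. TMM-normalised RPKM used the lengths implied by the deposited RPKM. The ratio of LDO2 to LDO1 was tested by exact permutation. No replicate pair agreed within sampling noise. Intervals cover the spread between libraries, and counting errors cover counting only.

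The genes, lists and comparisons were chosen with earlier results of these data known. Besides LDO1 and LDO2, named genes were 3 models on either side of each, the 5 nearest profiles of each, and the 2 most abundant members of each list; the remaining haem enzymes were named after their values were seen. No sequence was used here. Alternatives were other scalings, no filter, unique reads, DESeq2 1.42.0, a replicate block, fits of the compared groups alone and leaving out each library.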

Additional observations from a re-analysis of the deposited data

Results flagged for a closer look

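The age change of LDO1 differed between the strains by the test of the difference itself, with 1.23 on the log2 scale for 1956-1252 minus BRFM1218 (adjusted p = 3.56e-11 in edgeR's quasi-likelihood test). It was positive in 1956-1252 and negative in BRFM1218, with no overlap between the ages in either strain. The age change of LDO2 also differed, by -0.45 (adjusted p = 5.91e-06), with a rise in both strains that was larger in BRFM1218. Such a difference was called in 52.9% of all tested genes.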

How the results depend on the processing

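The calls and directions of LDO1 and LDO2 in the 5 comparisons were kept in all 198 alternative values computed. Leaving out each library in turn gave log2 age changes of 0.82 to 0.86 for LDO1 and 0.82 to 0.86 for LDO2 in 1956-1252, and of -0.42 to -0.34 and 1.26 to 1.32 in BRFM1218. The interaction ran from 1.18 to 1.28 for LDO1 and from -0.49 to -0.40 for LDO2. Counts of called genes stayed within 1.5 times in all alternatives. Under the 4 scalings, a check added after seeing the data, the median age changes of the 3 enzyme lists kept their sign, and their counts of called genes moved by at most 1. Upper quartile factors and library size only changed the size of the strain differences of LDO1 and LDO2, as given above. Same-numbered replicates did not deviate together (correlations from -0.149 to 0.0757 over 18 pairs, 8 of 18 best with their own number). With the replicate number as a block the interaction was 1.23 for LDO1 and -0.45 for LDO2, and no call changed. The log2 ratio of LDO2 to LDO1 differed between strains by 2.45 to 2.48 with unique reads, an added 0.5 RPKM or same-numbered differences as a replicate block. The few reads of the models after LDO2 limit what can be said of them.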
